A study of Mus musculus with 2 samples.

Results

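Potassium channel genes were taken as every mouse gene of the deposited expression table whose symbol begins with Kcn, followed by lower-case letters and a number. After 1 symbol that fits this pattern had been left out, 91 genes remained of the 31253 genes to which transcript rows could be matched. The rule used symbols alone and no measured value. The samples were C57BL/6 mouse material of 2 kinds with 1 library of total RNA each. The mNRPC library came from cultured progenitor cells, isolated from adult neural retina and taken at passage 24. Their basic medium held N2 and B27 supplements, the mitogen bFGF and, as an inhibitor of the kinase GSK3, the compound CHIR99021, as the study's methods describe. The retina library came from retina tissue of the same strain, for which no age or treatment was given. Every level below is in FPKM, a fragment count divided by transcript length and by sequencing depth, and summed over the transcripts of a gene, so that levels can be set side by side between genes of unlike length.

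Potassium channels are membrane proteins that let potassium ions flow along their gradient. They set the resting potential of a cell, end its action potentials and shape its response to light or transmitter. Voltage-gated (Kv) channels open on depolarization, calcium- and sodium-activated channels open when these ions rise inside the cell, inward rectifiers (Kir) pass current near the resting potential, and K2P channels, with a pair of pore domains in each subunit, carry background leak. In the retina, photoreceptors respond to light with graded changes of potential that Kv and cyclic nucleotide-gated currents form, ganglion cells fire spikes that need fast Kv channels, and Müller glia take up the potassium that neurons release.

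The mNRPC library held few of these genes while the retina library held most of the set at a measurable level. At least 1 FPKM was reached by 11 of the 91 genes in mNRPCs (12.1%) and by 52 in retina (57.1%), while over all genes of the table the shares were 35.4% and 40.4%. At least 10 FPKM was reached by 3 genes in mNRPCs (3.30%) and 19 in retina (20.9%), against 20.5% and 21.4% of all genes, so that at this level only the mNRPC share departed from that of all genes. The summed level of the set was 80.1 FPKM in mNRPCs and 1003 FPKM in retina, 12.5 times as high. It made up 0.0130% of all FPKM of the mNRPC library and 0.232% of the retina library. In mNRPCs 52 of the 91 genes were listed at 0 (57.1%), near the share over all genes (51.4%). In retina 15 were listed at 0 (16.5%), against 45.4% over all genes, and 10 were listed at 0 in both. Each kind of sample had 1 library and therefore no replicate, which leaves every difference without an error between samples and without a test. The samples are bulk, and for every gene lower in 1 of them fewer cells of a type and less RNA per cell cannot be told apart.

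A log2 ratio was formed for each gene from its FPKM plus 1 in mNRPCs over its FPKM plus 1 in retina, a scale that understates the change of low genes. Ratios were read for genes of at least 1 FPKM in 1 of the libraries, and a gene was called higher or lower in mNRPCs from a ratio of 2-fold on. This took in 54 of the 91 genes, of which 2 were higher, 44 lower and 8 within 2-fold. Over all 13780 genes read in the same way, 24.5% were higher and 30.0% lower. The median log2 ratio was -2.22 for the 54 genes and -0.12 for all genes. The filter set which genes entered the median and the shares. It could not change the number called, because with 1 added a gene below 1 FPKM in both libraries cannot reach 2-fold. The same counts of 2 higher and 44 lower without it are therefore no check. Of the 54 genes, 43 passed 1 FPKM in retina alone, and a gene of this kind cannot come out higher in mNRPCs. Over all genes, 2704 of the 13780 read passed in retina alone, so the 2 sets were not equally open to a higher call. Over all 91 genes, without any filter, the median was -0.97, and over all genes of the table it was 0. Of the 44 lower genes, 25 were listed at 0 in mNRPCs (56.8%), 6 rested on at most 3 estimated fragments there and 13 on more. Of the 4130 lower genes of the whole table, 1097 (26.6%), 637 and 2396 fell in these groups.

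**Figure D1:**
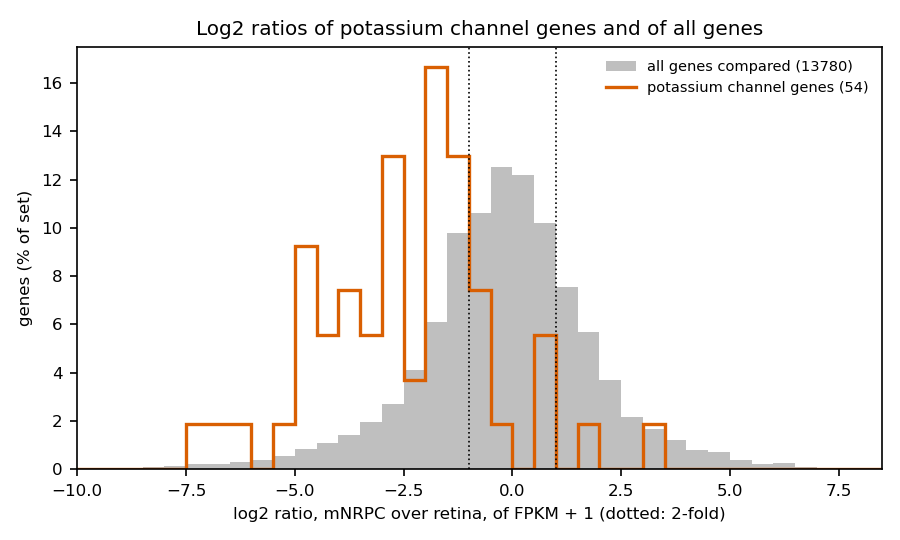
The horizontal axis gives the log2 ratio of FPKM plus 1, mNRPC over retina, in steps of 0.5, and the vertical axis the share of genes in percent, for the 54 potassium channel genes read (line) and for all 13780 genes read (grey), with dotted lines at 2-fold. The line lies mostly left of the dotted line at -1, with 44 of 54 genes there, and only 2 genes lie right of the line at 1.

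The markers of the labelled tissues went with their labels. In retina all 8 rod markers and all 5 cone markers were above 1 FPKM, with summed levels of 20029 and 714 FPKM, and in mNRPCs these lists summed to 7.83 and 0.704 FPKM. The lists for bipolar cells, amacrine cells, ganglion cells and Müller glia were lower in mNRPCs in 16 of 17 genes. The 4 progenitor markers (Sox2, Nes, Ccnd1 and Vim) were all higher in mNRPCs, with sums of 3750 FPKM against 125 FPKM. Tissue other than neural retina was also measured. In retina the pigment epithelium genes Ttr and Rpe65 stood at 56.5 and 8.53 FPKM, and both were listed at 0 in mNRPCs. The fibroblast collagen Col3a1 stood at 450 FPKM in mNRPCs and at 0.311 FPKM in retina, while the other fibroblast markers were not 2-fold higher once 1 was added to each value. Col1a1 stood at 1.35 FPKM in mNRPCs and 0.552 FPKM in retina, Col1a2 at 0.0843 and 0.952 FPKM and Dcn at 1.964 and 2.58 FPKM. Of the pericyte markers Pdgfrb was higher in mNRPCs (4.49 against 1.24 FPKM) and Rgs5 was listed at 0 there against 8.16 FPKM, and the 4 endothelium markers summed to 0.0459 FPKM in mNRPCs and 37.2 FPKM in retina. The 4 microglia markers summed to 1.23 and 1.68 FPKM.

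**Figure D2:**
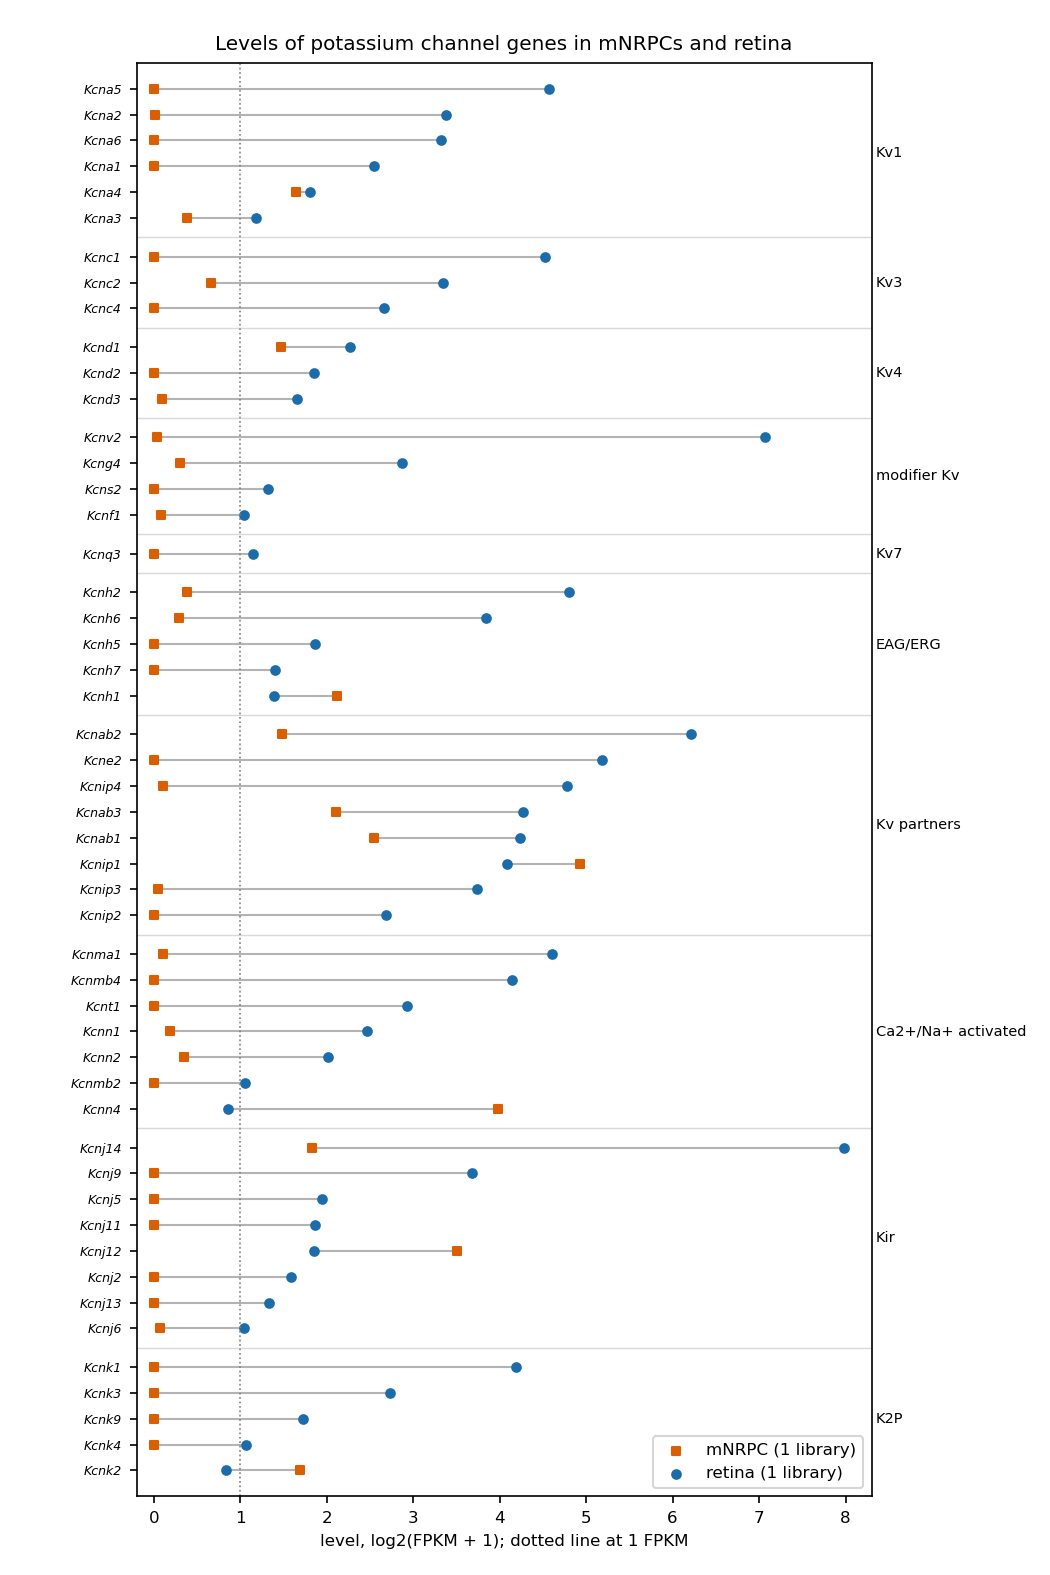
Each row is 1 potassium channel gene of at least 1 FPKM in 1 library (50 of the 54 are drawn), grouped by channel class, with its level as log2(FPKM + 1) on the horizontal axis in mNRPCs (squares) and in retina (circles). Squares stand right of circles for 5 genes, Kcnh1, Kcnip1, Kcnn4, Kcnj12 and Kcnk2, and most other squares lie close to 0.

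The 2 genes that were higher in mNRPCs were Kcnn4 and Kcnj12. Kcnn4 encodes KCa3.1, the intermediate-conductance channel that calcium opens through calmodulin and that is known from lymphocytes, red blood cells and epithelia. It stood at 14.7 FPKM in mNRPCs and 0.811 FPKM in retina, 18.2-fold higher, with a log2 ratio of 3.12 and a counting error of 0.25, which covers sampling of fragments alone. Its retina level rested on an estimated 8.08 fragments. Kcnj12 encodes Kir2.2, a strong inward rectifier of muscle and brain. It stood at 10.4 FPKM in mNRPCs and 2.62 FPKM in retina, a log2 ratio of 1.65. Of its mNRPC level, 78.8% lay on a transcript that RefSeq only predicts, and on curated transcripts alone the levels were 2.20 and 0.819 FPKM, a log2 ratio of 0.82 that is within 2-fold. Of the 4 smooth muscle markers, Acta2 was also higher in mNRPCs (10.1 against 4.39 FPKM), Tagln was lower (listed at 0 against 2.23 FPKM), Myh11 was listed at 0 and Cnn1 was at 0.0587 FPKM, and the list summed to 10.2 FPKM in mNRPCs and 7.11 FPKM in retina. Its part in the Kcnj12 level was not tested. For Kcnn4 the curated transcripts alone gave a log2 ratio of 3.20.

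Upstream sequence was read from the RefSeq promoter table (build GRCm38.p6), which held an entry for 66 of the 91 genes. The 250 bases before the annotated start are shown for the 2 genes that were higher in mNRPCs, and for Kcnj9, a gene of retina, because it was the only one of the 66 with the letters TAATCC on either strand (read along the gene, the reverse complement is GGATTA). These letters are the core of the sequence bound by CRX, a transcription factor of photoreceptors. The Kcnn4 window is chr7:24370013-24370262 on the plus strand, the Kcnj12 window chr11:61065554-61065803 on the plus strand and the Kcnj9 window chr1:172329323-172329572 on the minus strand. Each is written 5′ to 3′ along its gene with the match in capitals.
Kcnn4: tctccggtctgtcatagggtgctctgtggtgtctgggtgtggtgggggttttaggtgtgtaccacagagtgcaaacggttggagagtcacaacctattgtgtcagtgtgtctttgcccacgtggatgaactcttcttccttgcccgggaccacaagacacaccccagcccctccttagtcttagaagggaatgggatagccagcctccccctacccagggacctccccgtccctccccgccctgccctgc
Kcnj12: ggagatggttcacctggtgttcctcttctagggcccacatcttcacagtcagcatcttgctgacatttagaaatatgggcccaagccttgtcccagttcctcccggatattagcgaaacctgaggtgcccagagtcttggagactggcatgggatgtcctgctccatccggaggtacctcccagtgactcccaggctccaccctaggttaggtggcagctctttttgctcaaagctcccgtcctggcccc
Kcnj9: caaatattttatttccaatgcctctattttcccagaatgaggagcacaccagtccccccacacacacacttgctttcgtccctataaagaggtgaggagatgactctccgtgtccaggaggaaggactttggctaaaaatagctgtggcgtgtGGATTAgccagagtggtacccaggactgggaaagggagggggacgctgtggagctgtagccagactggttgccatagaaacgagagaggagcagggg
The match in Kcnj9 began at position -97, counted from the start. On both strands together these letters were found in 1 of the 91 promoters listed for potassium channel genes (1.10%), in 2054 of the 32851 promoters of the whole table (6.25%) and in 4 of the 12 listed for the rod and cone markers (33.3%). Of the 19 potassium channel genes of at least 10 FPKM in retina, 14 had an entry. Among these 14, 1 held the letters (7.14%), near the share of all genes of the table (7.21%). The others, among them Kcnj14 and Kcnv2, had no entry, so their promoters were not read. A match of letters is a description of the window and does not show a bound site.

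Of the inward rectifiers, 14 in all, 2 reached 1 FPKM in mNRPCs and 8 in retina, and their summed levels were 13.1 and 277 FPKM. Most of the retina sum was a single gene, Kcnj14, which encodes Kir2.4, a relative of Kir2.2 with a weaker affinity for blockers that was first described in brainstem motor nuclei. Kcnj14 was the highest potassium channel gene of the retina library at 252.5 FPKM and stood at 2.56 FPKM in mNRPCs, a log2 ratio of -6.15. The mNRPC level rested on 44.4 estimated fragments and was 1.02% of the retina level. For the summed rod, cone and ganglion cell markers this share was 0.0391%, 0.0987% and 0.511%. For bipolar cell, Müller glia and amacrine cell markers it was 1.61%, 2.70% and 4.40%. The part of any of these cells in the Kcnj14 level was not tested. Next in retina came Kcnj9, which encodes Kir3.3, a subunit of channels opened by G proteins, at 11.8 FPKM, listed at 0 in mNRPCs. Kcnj5 (Kir3.4), a partner in such channels, and Kcnj11 (Kir6.2), the pore of the ATP-sensitive channel, stood at 2.84 and 2.64 FPKM in retina and were also listed at 0 in mNRPCs. Of the Kcnj5 level, 86.5% lay on a predicted transcript. In mNRPCs Kcnj12 stood above Kcnj14 over all transcripts (10.4 against 2.56 FPKM) but not on curated ones (2.20 against 2.56 FPKM), and in retina Kcnj14 was above Kcnj12 either way. Kcnj2 (Kir2.1) was listed at 0 in mNRPCs and stood at 1.996 FPKM in retina. Kcnj13 (Kir7.1), a channel of the pigment epithelium, was at 1.52 FPKM in retina and listed at 0 in mNRPCs. It was lower in mNRPCs, as were all rod and cone markers. So were 3 of the 4 pigment epithelium markers, Ttr, Rpe65 and Lrat, while Best1 was below 1 FPKM in both libraries. The list summed to 66.9 FPKM in retina and 0.0615 FPKM in mNRPCs with these 3 listed at 0 there, and its part in the Kcnj13 level was not tested.

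The next highest level of retina named here was that of a modifier subunit, a class whose members form no channel alone. Kcnv2 encodes Kv8.2, an electrically silent subunit of photoreceptors whose loss in humans gives a cone dystrophy with enlarged rod responses. It stood at 133.7 FPKM in retina and at 0.0265 FPKM in mNRPCs, 0.0198% of the retina level. The mNRPC value rested on less than 1 estimated fragment, and taking 3 fragments as the limit the level was at least 1470-fold lower in mNRPCs. The summed rod and cone markers stood in mNRPCs at 0.0391% and 0.0987% of their retina levels, and the part of photoreceptor number in the Kcnv2 level was not tested. Of the 10 genes of this class, none was at least 1 FPKM in mNRPCs and 4 were in retina, beside 35.4% and 40.4% of all genes. Kcng4 (Kv6.4) stood at 6.34 FPKM in retina and 0.235 FPKM in mNRPCs, a log2 ratio of -2.57. Kcns2 (Kv9.2) stood at 1.49 FPKM in retina and was listed at 0 in mNRPCs, and Kcnf1 (Kv5.1) at 1.06 and 0.0579 FPKM, a log2 ratio of -0.96 that is within 2-fold as deposited and beyond it with the common sum (-1.12) or a pseudocount of 0.5 (-1.48).

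The Kv1 genes encode the Shaker-related channels that hold back firing at axons and synapses. Of 8 genes, 6 reached 1 FPKM in retina and only Kcna4 did so in mNRPCs. Kcna4 encodes Kv1.4, an inactivating channel, and its levels of 2.12 FPKM in mNRPCs and 2.51 FPKM in retina were close, a log2 ratio of -0.17 with a counting error of 0.18. Of the others, Kcna1, Kcna2, Kcna5 and Kcna6 were lower in mNRPCs. Kcna5 (Kv1.5), known best from heart atria, led the class with 22.7 FPKM in retina and was listed at 0 in mNRPCs. Kcna6 (Kv1.6) and Kcna1 (Kv1.1) stood at 9.01 and 4.83 FPKM in retina and were listed at 0 in mNRPCs as well. These 3 genes lie next to each other on chromosome 6. Kcna2 (Kv1.2) stood at 9.38 FPKM in retina and 0.0128 FPKM in mNRPCs, under 1 estimated fragment. Its neighbours on chromosome 3 were lower in retina, Kcna3 at 1.27 FPKM (0.308 FPKM in mNRPCs, within 2-fold) and Kcna10 at 0.188 FPKM.

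Kv3 genes encode fast channels known from neurons that fire at high rates. Kcnc1 stood at 22.1 FPKM in retina, Kcnc2 at 9.16 FPKM and Kcnc4 at 5.33 FPKM. In mNRPCs Kcnc1 and Kcnc4 were listed at 0 and Kcnc2 stood at 0.576 FPKM, a log2 ratio of -2.69. On curated transcripts alone the retina levels were 11.6 FPKM for Kcnc1 and 2.40 FPKM for Kcnc2, and the log2 ratio of Kcnc2 was -1.11. The ganglion cell markers, a list of neurons that spike, summed to 339 FPKM in retina and 1.73 FPKM in mNRPCs, and their part in these levels was not tested.

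The Kv4 genes encode A-type channels that open below the firing threshold, and their levels in retina were modest. Kcnd1 (Kv4.1) stood at 3.83 FPKM in retina and 1.78 FPKM in mNRPCs, a log2 ratio of -0.80, within 2-fold as deposited and lower than 2-fold (-1.17) once both libraries were set to a common sum. Kcnd2 (Kv4.2) stood at 2.62 FPKM in retina and was listed at 0 in mNRPCs, and Kcnd3 (Kv4.3) stood at 2.16 and 0.0712 FPKM.

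The partner subunits of Kv channels held the largest share of the mNRPC set. The 11 genes of this class made up 49.3% of the summed potassium channel level in mNRPCs (39.5 FPKM) and 20.5% in retina (205 FPKM). The highest of all 91 genes in mNRPCs was Kcnip1, which encodes KChIP1, a calcium-binding partner of Kv4 channels. It stood at 29.4 FPKM in mNRPCs and 16.0 FPKM in retina, a log2 ratio of 0.84. The direction was kept under each scaling tried, with ratios from 0.28 to 0.79, and the call changed only when the highest transcript stood for the gene (1.12). In mNRPCs the level of Kcnip1 was 16.5 times that of Kcnd1, the only Kv4 gene above 1 FPKM there, and in retina 4.18 times. The other KChIP genes were retina genes. Kcnip4 stood at 26.5 FPKM in retina and 0.0773 FPKM in mNRPCs (1.13 estimated fragments), Kcnip3, whose product also acts as a transcriptional repressor, at 12.4 and 0.0355 FPKM, and Kcnip2 at 5.46 FPKM in retina and listed at 0 in mNRPCs.

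The Kvβ genes, whose cytosolic products bind Kv1 channels, reached 1 FPKM in both libraries, as Kcnip1 did. Kcnab1 stood at 4.86 FPKM in mNRPCs and 17.8 FPKM in retina (log2 ratio -1.68), and Kcnab3 at 3.30 and 18.3 FPKM (-2.16). Kcnab2 differed more, with 1.79 FPKM in mNRPCs and 73.4 FPKM in retina, a log2 ratio of -4.74. Its transcripts differed as well. The curated transcript that held 49.7% of the Kcnab2 level in mNRPCs held 6.50% in retina, and the one that held 52.1% in retina was listed at 0 in mNRPCs, where the gene rested on 40.9 estimated fragments. Among the single-pass Kcne subunits only Kcne2 was measured at 1 FPKM or more. Kcne2 encodes MiRP1, a partner of several Kv channels known from stomach and choroid plexus epithelium, and stood at 35.2 FPKM in retina, listed at 0 in mNRPCs. The pigment epithelium markers Ttr, Rpe65 and Lrat given above were also lower in mNRPCs, while Best1 was below 1 FPKM in both libraries. All rod and cone markers and most markers of other retinal cell types were lower there too. The part of any of these cells in the Kcne2 level was not tested.

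**Figure D3:**
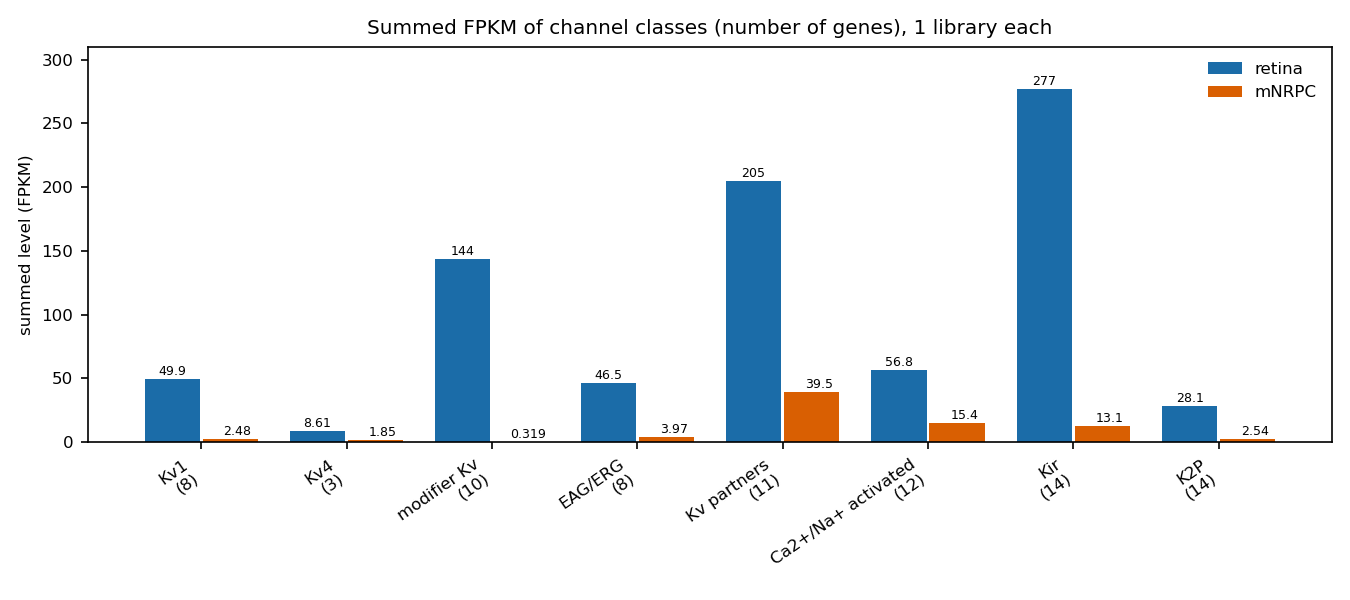
Bars give the summed FPKM of 8 channel classes, with the number of genes below its name, in retina and in mNRPCs (1 library each, so without error bars). The 3 tallest retina bars drawn are those of the inward rectifiers (277), the Kv partners (205) and the modifier subunits (144), and the tallest mNRPC bar is that of the Kv partners (39.5).

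Among calcium- and sodium-activated channels the Kcnn genes were higher in sum in mNRPCs and the BK channel genes in retina. The 4 Kcnn genes summed to 15.3 FPKM in mNRPCs and 8.64 FPKM in retina, and in mNRPCs nearly all of this was Kcnn4. The other 3 encode the small-conductance SK channels. Of these Kcnn2 stood at 3.04 FPKM in retina and 0.278 FPKM in mNRPCs. Kcnn1 stood at 4.53 FPKM in retina and 0.141 FPKM in mNRPCs, with 90.7% of the retina level on a predicted non-coding transcript. On coding transcripts alone Kcnn1 stood at 0.423 FPKM in retina and 0.141 FPKM in mNRPCs, a log2 ratio of -0.32. On curated ones the ratio was -0.03, and both ratios are within 2-fold. Kcnma1, the pore of the large-conductance BK channel, stood at 23.3 FPKM in retina and 0.0729 FPKM in mNRPCs, which rested on 1.65 estimated fragments. Of the retina level 79.8% lay on predicted transcripts, and on curated ones alone Kcnma1 stood at 4.71 FPKM and below Kcnmb4 (16.0 FPKM), with a log2 ratio of -2.48 in place of -4.50. Its accessory subunit gene Kcnmb4, the β subunit of neurons, stood at 16.7 FPKM in retina, and all 4 Kcnmb genes were listed at 0 in mNRPCs. Kcnt1, a sodium-activated channel, stood at 6.62 FPKM in retina (3.25 FPKM on curated transcripts) and was listed at 0 in mNRPCs.

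The EAG and ERG channels (Kcnh) are known for currents that open or close slowly. Kcnh1 (Eag1), known from brain and from tumour lines, was the only Kcnh gene above 1 FPKM in mNRPCs. It stood at 3.33 FPKM there and at 1.63 FPKM in retina, a log2 ratio of 0.72 that ranged from 0.32 to 0.68 under the scalings tried. The ERG genes were higher in retina, with Kcnh2 (Erg1) at 26.8 FPKM against 0.306 FPKM in mNRPCs, and Kcnh6 (Erg2) at 13.3 against 0.221 FPKM. None of the Kcnh6 level lay on a curated transcript in either library. Kcnh5 (Eag2) and Kcnh7 (Erg3) stood at 2.63 and 1.64 FPKM in retina and were listed at 0 in mNRPCs. Curated transcripts held 3.74% of the Kcnh7 level, and the gene was not 2-fold lower on these or on its highest transcript alone. Exons of Kcnh7 overlap those of Gca on the opposite strand, a gene of 8.01 FPKM in mNRPCs and 12.3 FPKM in retina, and whether the counting used strand is not given in the sources used here. Kcnq3, a subunit of the channels that carry the M-current of neurons, stood at 1.21 FPKM in retina and was listed at 0 in mNRPCs, and was not 2-fold lower on curated transcripts (0.595 FPKM in retina) or on its highest transcript.

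Of the 14 K2P genes, 4 reached 1 FPKM in retina and 1 in mNRPCs, beside 40.4% and 35.4% of all genes. Kcnk1 (TWIK-1) led in retina at 17.2 FPKM, ahead of Kcnk3 (TASK-1) at 5.63 FPKM, Kcnk9 (TASK-3) at 2.30 FPKM and Kcnk4 (TRAAK) at 1.10 FPKM, and all 4 were listed at 0 in mNRPCs. The Kcnk9 level lay wholly on predicted transcripts and curated ones held 0.192 FPKM of Kcnk4, so neither was 2-fold lower on curated transcripts. The gene seen in mNRPCs was Kcnk2, which encodes TREK-1, a leak channel that stretch and lipids open. It stood at 2.24 FPKM in mNRPCs and 0.791 FPKM in retina, a log2 ratio of 0.85 with a counting error of 0.34, and its retina level rested on 6.60 estimated fragments. The leading transcript was not the same. The curated transcript that held 98.8% of the retina level held 6.31% of the mNRPC level, while the one that led in mNRPCs with 45.9% held 0.493% in retina. The remaining K2P gene with more than 3 estimated fragments in mNRPCs was Kcnk5 (TASK-2), at 0.303 FPKM and listed at 0 in retina.

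**Figure D4:**
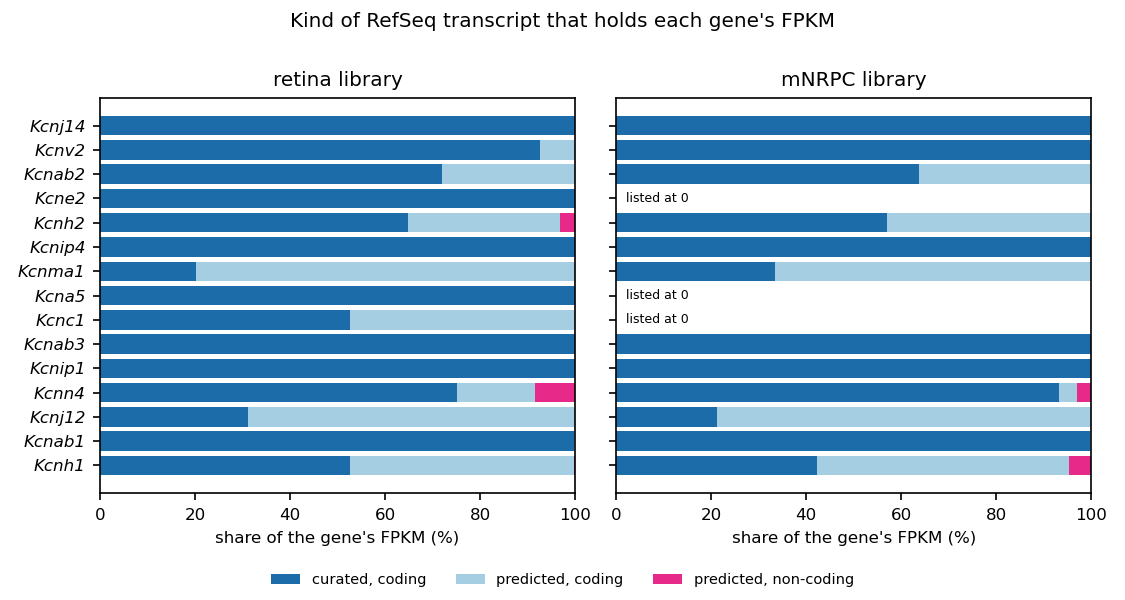
For 10 potassium channel genes of high level in retina and the 5 highest in mNRPCs, bars give the share in percent of a gene's FPKM on curated coding, predicted coding and predicted non-coding RefSeq transcripts in each library. Curated coding transcripts hold all of Kcnj14 in both libraries, and predicted coding ones hold 78.8% of Kcnj12 in mNRPCs.

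Proteins that work beside these channels but have other symbols were read as a separate list of 16 genes. Of the 10 that reached 1 FPKM in 1 library, none was higher in mNRPCs, 9 were lower and 1 was within 2-fold, beside 24.5% higher and 30.0% lower over all genes, and 7 of the 10 had reached 1 FPKM in retina alone. That 1 was Amigo1, an adhesion protein of neurons that associates with Kv channels, at 13.3 FPKM in mNRPCs and 12.5 FPKM in retina. Dlg4, the scaffold PSD-95 that clusters Kv1 and Kir channels, stood at 9.67 FPKM in mNRPCs and 93.4 FPKM in retina. The Kv4 partner genes Dpp6 and Dpp10 stood at 20.4 and 4.08 FPKM in retina, with Dpp6 at 0.126 FPKM and Dpp10 listed at 0 in mNRPCs, and Cntnap2, which anchors Kv1 channels at axons, stood at 31.6 and 0.220 FPKM.

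The remaining 37 potassium channel genes stayed below 1 FPKM in both libraries, and 27 of them were listed at 0 in mNRPCs. The highest of these levels was 0.957 FPKM, for Kcnk12 in retina. Of the 37, 9 were K2P genes, 6 inward rectifiers, 6 modifier subunits and 5 calcium- or sodium-activated channels. At this depth 3 fragments on a transcript of 2000 bases equal 0.232 FPKM in mNRPCs and 0.296 FPKM in retina. Levels below this on a transcript of that length cannot be told from 0, and the limit is lower for longer transcripts.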

How the data were processed

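Total RNA of 1 mNRPC culture and 1 retina sample was extracted with Trizol and sequenced. The authors deposited FPKM values per RefSeq transcript. The submitters' processing notes name TopHat2 2.0.10 and build GRCm38.p3, whereas the study's methods describe Bowtie 2 and eXpress for its RNA-seq. Strandedness is not given in the sources used here. Of 106754 rows, 74283 (69.6%) matched a mouse symbol in RefSeq or gene name tables after the version was dropped, with 93.2% of the mNRPC and 89.9% of the retina FPKM. The 368 rows of the 91 genes were summed per gene with pandas 2.3.3 under python 3.11.15. Following the study's methods, 1 was added before log2.

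Depth was estimated from the lowest common value of FPKM times length, which 1 fragment gives, over transcripts of at least 1500 bases of genes with a single row. It was 6.46e+06 fragments for mNRPCs and 5.07e+06 for retina. It ranged from 6.38e+06 to 6.46e+06 and from 4.90e+06 to 5.50e+06 with minimum lengths of 500 and 2500 bases. On simulated fragments of 3 known depths per library the method was off by at most 6.63%. The simulation took the lengths as known and 1 fragment as giving the lowest value, so it does not measure the error on these data. A value of 0 may be a failed estimate. Of 75 ribosomal protein genes of at least 50 FPKM in 1 library, 1 was under 1 FPKM in mNRPCs, and whether its estimate failed was not tested.

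Genes named were those of at least 1 FPKM in mNRPCs, the 4 highest of each class in retina among those of at least 1 FPKM, and those at least 2-fold higher in mNRPCs. Kcna3, Kcna10, Kcnip2, Kcnip3, Kcnj2, Kcnj13, Kcnk5, Kcnk12 and Kcnn2 were added after their values were seen. The members and lists were chosen with earlier results of these data known. The alternatives tried were other pseudocounts, minimum levels, thresholds and scalings, curated transcripts alone and the highest transcript per gene. The symbol left out, and some genes that enter the counts and sums, are not reported here by name.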

Additional observations from a re-analysis of the deposited data

How the results depend on the processing

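The counts kept their order under each alternative, with fewer potassium channel genes higher than lower in mNRPCs. With curated transcripts alone, or with a 4-fold threshold, 1 gene was higher. With the highest transcript per gene, or with a pseudocount of 0.1 or 0.5, 3 genes were higher. With a 4-fold threshold 28 were lower, with a minimum of 5 FPKM 27 were lower, and with both libraries set to a common sum 49 were lower. The median log2 ratio was -4.77 with a pseudocount of 0.1, -3.62 with a minimum of 5 FPKM and -0.97 with no minimum. Genes detected in mNRPCs numbered 3 at 5 FPKM and 22 at 0.1 FPKM, and in retina 28 at 5 FPKM. The summed level in mNRPCs was 68.1 FPKM with libraries set to a common sum, also after rod and cone genes were taken out, 73.6 FPKM with trimmed mean scaling, 66.8 FPKM on curated transcripts and 68.7 FPKM on the highest transcript per gene. In retina it was 1217, 1278, 784 and 789 FPKM for the common sum, the common sum without rod and cone genes, curated transcripts and the highest transcript. Over all genes the median log2 ratio shifted to -0.60 with the common sum. The median of the potassium channel genes minus that of all genes was -2.10 as deposited and between -2.15 and -1.93 under 4 other scalings and 2 choices of transcripts. The log2 ratio of Kcnk2 was 1.39 and 1.08 with pseudocounts of 0.1 and 0.5, 0.57 with the common sum, 0.53 with that sum after rod and cone genes were taken out, and 0.19 with the highest transcript. On curated transcripts alone Kcnh6, Kcnh7, Kcnj5, Kcnk4, Kcnk9, Kcnn1 and Kcnq3 were no longer 2-fold lower and Kcnj12 no longer 2-fold higher. With the highest transcript per gene Kcnh7, Kcnk4 and Kcnq3 were no longer 2-fold lower. No paired analysis was possible because there was only 1 sample of each kind. Depth was estimated from the FPKM values, so counting errors are approximate, cover fragments alone and leave out the spread between animals or cultures.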
